A study of Caenorhabditis elegans with 9 samples.

Results

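The epidermal antimicrobial peptide genes of Caenorhabditis elegans described here are 10 genes chosen by name: nlp-27, nlp-28, nlp-29, nlp-30, nlp-31, nlp-34, cnc-1, cnc-2, cnc-4 and cnc-5. All 10 were found among the 46986 genes of the deposited table, and 8 were expressed well enough to be tested. RNA was sequenced from whole worms in 9 libraries: 3 of control worms (OP), 3 of worms under a high-fat condition (HFD) and 3 of worms under that condition that also received farrerol, a plant flavanone (FA). The high-fat condition was induced with citrate, according to the series title. The worms' strain and age, the doses and the treatment times were not stated in the labels. The labels also do not say that replicate libraries were grown as separate cultures, so each p-value reflects library-to-library spread alone, which may be technical.

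The worm has no adaptive immunity, and its epidermis answers fungal infection and wounding by making small secreted peptides. The nlp genes of this set encode short peptides rich in glycine and tyrosine, and the cnc genes encode the related caenacins. The best known of them, nlp-29, is switched on in the epidermis by the fungus Drechmeria coniospora, by injury and by high salt. Infection and injury act through a p38 MAP kinase cascade (TIR-1, NSY-1, SEK-1 and PMK-1), with the transporter SNF-12 and the STAT factor STA-2, whereas cnc-2 is controlled by the TGF-beta ligand DBL-1, which neurons release.

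All the genes lie in 2 groups on chromosome V (build WBcel235), and none overlaps another annotated gene. The 6 nlp genes fill 10.946 kb, from 3978825 to 3989770, in the order nlp-34, nlp-31, nlp-30, nlp-29, nlp-28 and nlp-27, with no other gene between them. The gaps between neighbours run from 920 to 3052 bases, and nlp-34 is the single nlp gene of the set on the minus strand. The position of nlp-29 (WBGene00003767) is 3984425 to 3984847 on the plus strand. The 4 cnc genes lie between 1444044 and 1450183, a span of 6.14 kb that also holds cnc-3. Of these, cnc-4 (WBGene00000558, 1447195 to 1447707) is on the plus strand and cnc-2 (WBGene00000556, 1449665 to 1450183) on the minus strand. Each of the 10 genes has 2 exons, and the summed exon length runs from 189 bases for cnc-1 to 714 for nlp-30. The copies of such families resemble each other, and how the authors assigned reads with several matches is not given, so single values may share reads between family members.

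Values below are FPKM, fragments per kilobase of exon scaled by a factor for each library, with SD over n = 3 libraries. The read numbers behind them could be recovered from the steps of the deposited values. The libraries held 17514542 to 21419867 reads on genes. A single read per kilobase was worth 0.0563 FPKM in FA replicate 2 and 0.0434 in FA replicate 3. These libraries held 20056071 and 20166991 reads on genes, so the scaling did not follow that total alone. How the factor was set is not known here. Each tested nlp gene had between 32 and 541 reads in a library, and cnc-4 had 50 to 147. Expression of cnc-2 rested on 1 to 17 reads. Both cnc-1 and cnc-5 are listed at 0 in all 9 libraries. A count of 0 allows up to 3 reads, or an FPKM of up to 0.689 to 0.947 for cnc-1 and 0.629 to 0.865 for cnc-5, depending on the library, from counting error alone. In whole worms, fewer epidermal cells and less RNA per epidermal cell cannot be told apart.

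In control worms nlp-27 was the most highly expressed of these genes, with 39.1 ± 1.71 FPKM, followed by nlp-31 with 20.2 ± 4.35 and cnc-4 with 14.3 ± 2.07 FPKM. The libraries of nlp-27 stood apart from those of nlp-31, whereas nlp-31 and cnc-4 overlapped. Next came nlp-30 (11 ± 1.45), nlp-29 (10.6 ± 1.29) and nlp-34 (10.5 ± 2.21 FPKM), whose control libraries overlapped each other, and then nlp-28 with 6.66 ± 2.99 FPKM. The lowest measured level was that of cnc-2, 0.358 ± 0.214 FPKM. In HFD nlp-29 moved from the fifth to the third place, behind nlp-27 and nlp-31, and it kept the third place in FA. In HFD all neighbours in the order overlapped except nlp-28 and cnc-2.

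**Figure D1:**
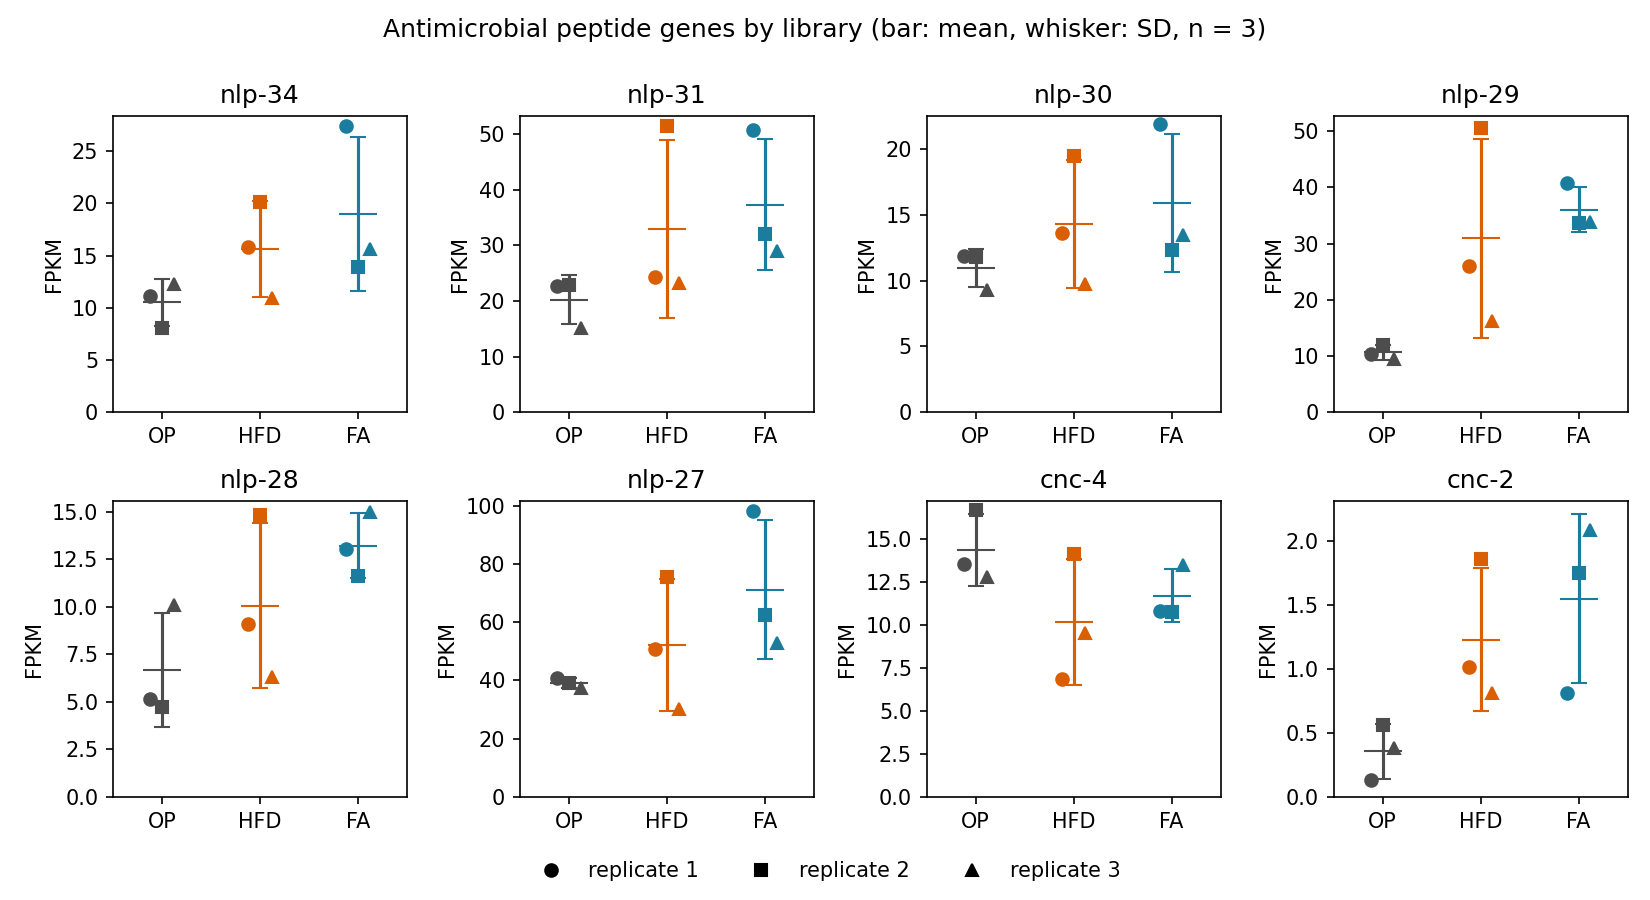
FPKM (linear axis from 0) of the 8 measured genes in each library of OP, HFD and FA, with the mean and SD of 3 libraries; marker shapes give the replicate number. The 3 control libraries of nlp-29 lie between 9.44 and 12 FPKM and all 6 HFD and FA libraries between 16.3 and 50.6 FPKM, while cnc-4 is the gene with a lower mean in both HFD and FA.

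HFD was compared with OP to ask how the high-fat condition changed these genes, and 1 of them, nlp-29, rose. Its control libraries held 10.4, 12 and 9.44 FPKM in replicates 1, 2 and 3, and its HFD libraries 26, 50.6 and 16.3 FPKM. Every HFD library was above every control library, and HFD replicate 2 was the highest and HFD replicate 3 the lowest of the 3. The mean went from 10.6 ± 1.29 to 31 ± 17.7 FPKM, a ratio of means of 2.91 (log2 fold change 1.32, SE 0.31, 95% interval 0.63 to 2.01, adjusted p = 0.0313 in limma's test over all genes). This call was narrow. It was lost without OP replicate 1, 2 or 3 (adjusted p of 0.0739, 0.096 and 0.112), without HFD replicate 1 (0.0628) or HFD replicate 2 (0.0596, log2 fold change 0.90), and with no filter on low values (0.0939), while the change stayed positive in each case.

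Of the 8 measured genes 1 was called higher in HFD, against 2.74% of all 14730 genes tested, and 0 lower, against 4.62%. At an unadjusted p under 0.05, in either direction, there were 3 of the 8, beside 3224 of the 14730 genes tested. They were nlp-29 and cnc-2, with positive changes, and cnc-4, with a negative one. The log2 fold change was positive in 7 of the 8, with a median of 0.52 beside 0.01 over all genes tested. In the deposited FPKM, HFD libraries were all above control libraries for nlp-29, nlp-31 and cnc-2, which is 3 of 8 against 12.8% of all genes. Below them throughout lay 0 of the 8, against 16.6%. These counts include cnc-2, which entered the test only through its HFD and FA libraries. The overlap was not examined under another scaling. For nlp-31, HFD replicate 1 had 183 of 17808607 reads on genes and OP replicate 1 had 219 of 20714122, a lower share in HFD.

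The other nlp genes of the cluster had smaller changes, and none passed. Expression of nlp-31, whose peptide has been described as antifungal in vitro, was 22.7, 22.8 and 15.2 FPKM in the control libraries and 24.2, 51.4 and 23.2 FPKM in the HFD libraries (log2 fold change 0.60, 95% interval -0.08 to 1.29, limma adjusted p = 0.295). In the deposited FPKM the groups did not overlap, but 2 of the 3 HFD libraries lay just above the highest control library. Expression of nlp-27 was 40.7, 39.2 and 37.3 FPKM in the control libraries and 50.8, 75.5 and 30.2 FPKM in the HFD libraries (log2 fold change 0.32, 95% interval -0.35 to 0.98, limma adjusted p = 0.609). Its HFD libraries lay on both sides of the control libraries. Without HFD replicate 2 the log2 fold change of nlp-27 was 0.01. The HFD means of nlp-34, nlp-30 and nlp-28 were 15.6 ± 4.62, 14.3 ± 4.87 and 10.1 ± 4.34 FPKM, with log2 fold changes of 0.51, 0.31 and 0.52 and limma adjusted p of 0.322, 0.548 and 0.359.

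The caenacin genes differed from each other. Expression of cnc-4 was 13.6, 16.7 and 12.8 FPKM in OP and 6.86, 14.1 and 9.49 in HFD. Its HFD replicate 2 lay within the range of the control libraries and the other 2 HFD libraries below it, and it was the one gene of the set with a negative change (log2 fold change -0.50, 95% interval -0.99 to -0.02, limma adjusted p = 0.213). Expression of cnc-2 was 0.132, 0.558 and 0.383 FPKM in OP, from 1, 4 and 3 reads, and 1.01, 1.86 and 0.814 FPKM in HFD, from 6, 13 and 6 reads. The groups did not overlap (log2 fold change 0.70, 95% interval 0.12 to 1.28, limma adjusted p = 0.147). No control library of cnc-2 reached 1 FPKM, so it entered the test through its 4 HFD and FA libraries above that level. Its fold change on the log2(FPKM + 1) scale is smaller than its ratio of means, 3.44.

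**Figure D2:**
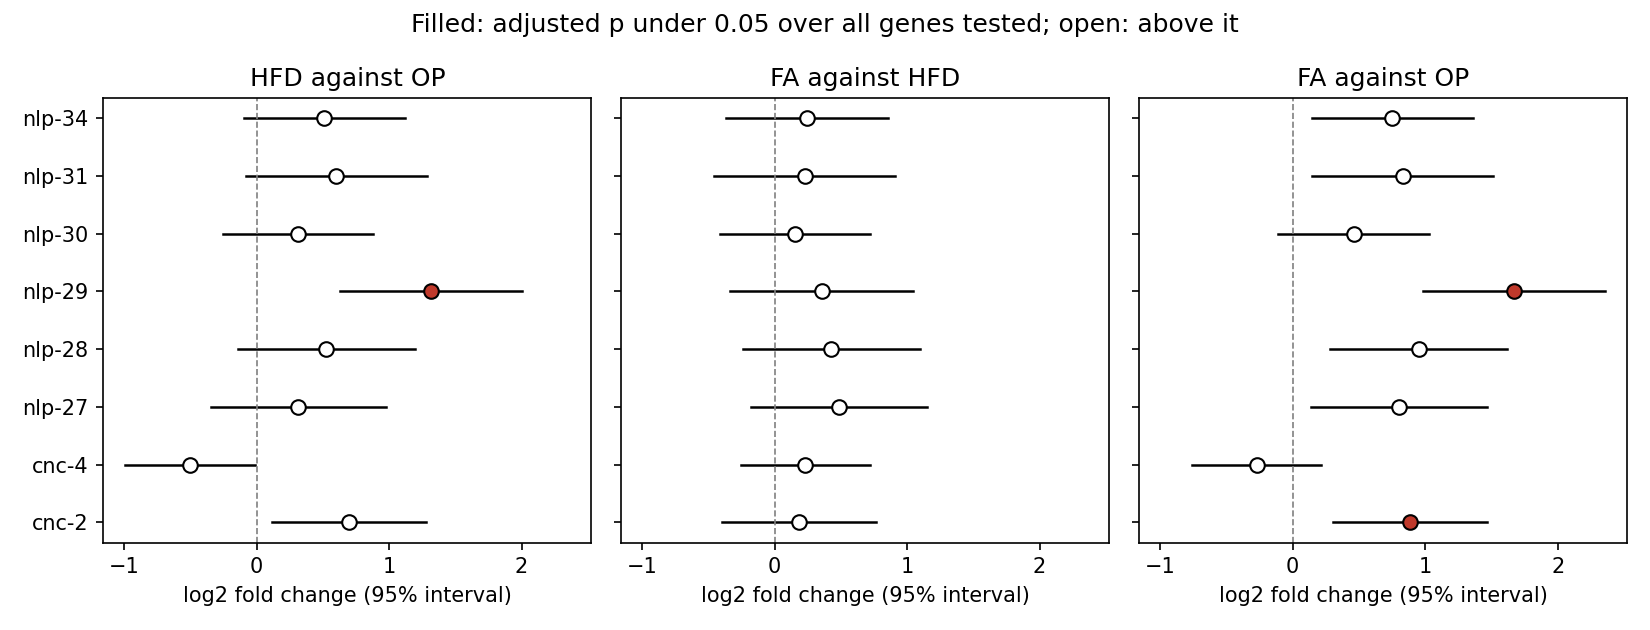
Log2 fold change of log2(FPKM + 1) with its 95% interval (horizontal axis, shared by the 3 panels) for the 8 measured genes, top to bottom in cluster order, in each comparison; filled points passed an adjusted p of 0.05 over all genes tested. In HFD against OP nlp-29 passed, in FA against HFD none did, and in FA against OP nlp-29 and cnc-2 passed.

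The level of nlp-29 relative to its neighbours was then set out within each library, where the scaling of the library cancels; these ratios were chosen after the values were seen and carry no test. The ratio of nlp-29 to nlp-27 was 0.256, 0.306 and 0.253 in OP, 0.511, 0.671 and 0.538 in HFD, and 0.414, 0.538 and 0.638 in FA. All 6 HFD and FA libraries were above all control libraries. The ratio of nlp-29 to nlp-30 went from 0.972 ± 0.0794 in OP to 2.06 ± 0.487 in HFD and 2.37 ± 0.452 in FA, again with no overlap with the controls. HFD did not overlap OP for 4 of the 5 neighbours. The exception was nlp-34, where HFD replicate 3 and OP replicate 2 had the same ratio, 1.49. FA did not overlap OP for 3 of the 5. All 5 ratios share nlp-29, whose own HFD and FA libraries lay above the controls, so these counts are not 5 separate observations. As a share of the summed FPKM of the 6 nlp genes, nlp-29 made up 10.8% ± 1.17 in OP, 19.1% ± 2.54 in HFD and 19.2% ± 2.67 in FA. The 5 other nlp genes together held 84.2 to 91.6 FPKM in the OP libraries, 80.4 to 181 in HFD and 126 to 211 in FA.

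**Figure D3:**
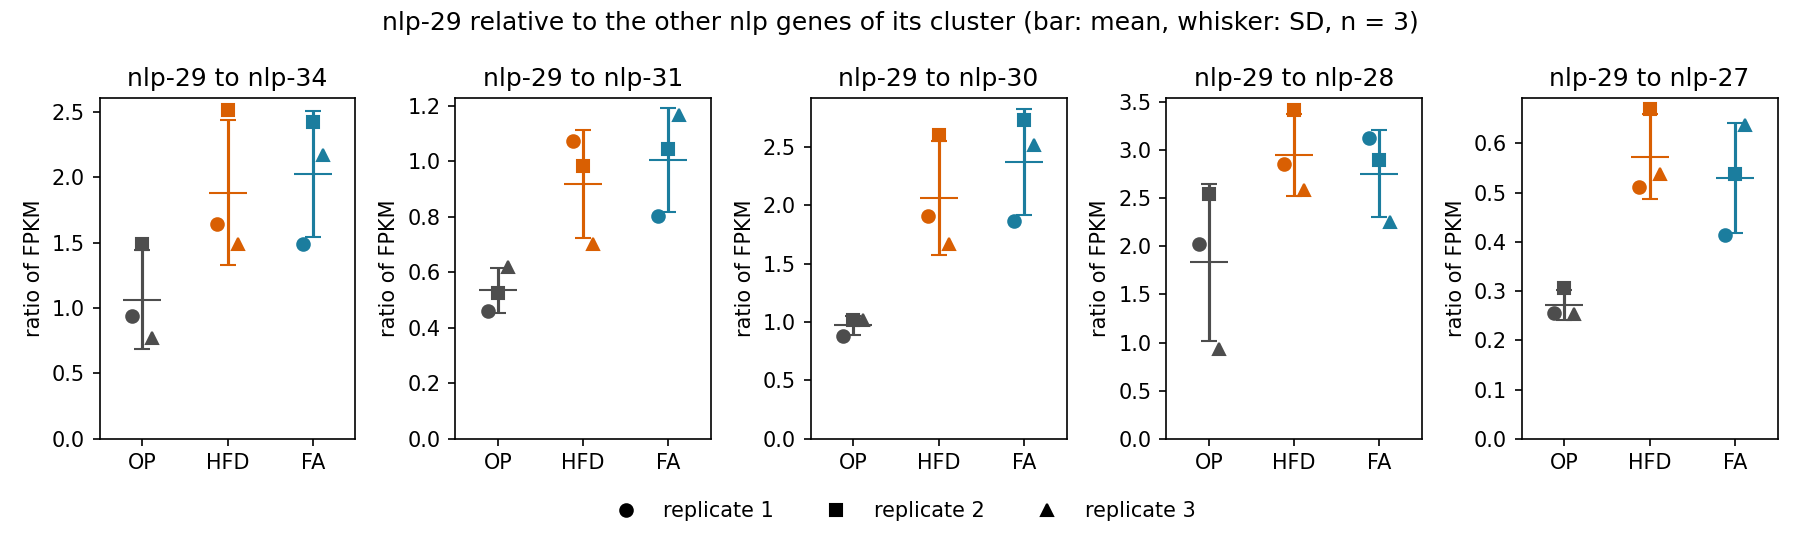
Ratio of the FPKM of nlp-29 to that of each of the 5 other nlp genes of its cluster (linear axis from 0), by library and group, with the mean and SD of 3 libraries. The ratio to nlp-27 is 0.253 to 0.306 in the control libraries and 0.414 to 0.671 in the HFD and FA libraries.

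FA was compared with HFD to ask how these genes differed with farrerol under the high-fat condition, and none of the 8 genes was called. Over all genes 0% were called higher and 0.00679% lower, 1 gene in all. At an unadjusted p under 0.05 there were 0 of the 8 genes and 368 of all genes tested. For 0 of the 8 did the FA libraries lie all above or all below the HFD libraries, against 1.83% and 3.27% of all genes. Expression of nlp-29 was 40.7, 33.6 and 33.8 FPKM in FA, within the range of its HFD libraries, and its mean of 36.0 ± 4.05 gave a log2 difference of 0.35 with a 95% interval from -0.33 to 1.04. Expression of nlp-27 was 98.3, 62.4 and 53.0 FPKM in FA (log2 difference 0.49, 95% interval -0.18 to 1.15). FA replicate 1 was above every HFD library and the other 2 FA libraries were within the HFD range. The 8 differences ran from 0.15 for nlp-30 to 0.49 for nlp-27, all positive, with a median of 0.24 beside 0.00 over all genes, and each interval included 0. The sign of 4 of them rested on 1 library. Without FA replicate 1 the difference was -0.01 for nlp-31, -0.04 for nlp-34 and -0.09 for nlp-30, and without HFD replicate 3 it was -0.02 for nlp-29 and -0.08 for nlp-30.

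In FA against OP, which asks how far worms given both high fat and farrerol differed from the controls, nlp-29 rose. A second gene, cnc-2, passed the threshold as well, but it entered the test only through HFD and FA libraries, where it was high. This comparison shares its FA libraries with FA against HFD and its OP libraries with HFD against OP. The mean of nlp-29 was 3.39 times that of OP (log2 fold change 1.67, SE 0.31, 95% interval 0.98 to 2.36, limma adjusted p = 0.0066), and it passed without any 1 library, with an adjusted p of at most 0.0309. Expression of cnc-2 was 0.811, 1.75 and 2.08 FPKM in FA, from 5, 11 and 17 reads (log2 fold change 0.88, SE 0.26, 95% interval 0.30 to 1.47, limma adjusted p = 0.0471). All 3 FA libraries were above the control libraries, at few reads. The call of cnc-2 held when FA replicate 1, HFD replicate 2 or HFD replicate 3 was left out and was lost for each of the other 6 libraries (limma adjusted p of at most 0.144), with a mean FPKM of at least 1 as the filter (0.0525), with no filter (0.0826), with a pseudocount of 5 (0.0618), and with TPM scaling or quantile normalization (0.0721 and 0.059).

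Without cnc-2, 1 of 7 genes was called higher, and with it 2 of 8, against 4.61% of all genes tested; 0 were called lower, against 9.96%. At an unadjusted p under 0.05 there were 6 of the 8, beside 4074 of the 14730 genes tested. In the deposited FPKM, all FA libraries were above all control libraries for 7 of the 8 genes, against 13.8% of all genes. The exception was cnc-4, and 0 of the 8 lay below throughout, against 17.2%. The counts again include cnc-2. The overlap was not examined under another scaling, and it can depend on it. For nlp-30, FA replicate 2 had 156 of 20056071 reads on genes and OP replicate 1 had 181 of 20714122, a lower share in FA. The median log2 fold change was 0.82 beside 0.02 over all genes tested. Expression of nlp-28 came next, with 13, 11.6 and 15 FPKM in FA and 5.17, 4.72 and 10.1 FPKM in OP (log2 fold change 0.95, 95% interval 0.28 to 1.62, limma adjusted p = 0.0605). OP replicate 3 was the closest of the controls to the FA libraries, and nlp-28 passed when that library was left out (limma adjusted p = 0.0303), and likewise for HFD replicate 2 (0.0388) and HFD replicate 3 (0.0421), with quantile normalization (0.0464) and with FA and OP fitted alone (0.0414). The log2 fold changes of nlp-31, nlp-27, nlp-34 and nlp-30 were 0.83, 0.80, 0.75 and 0.46, with limma adjusted p of 0.105, 0.106, 0.0993 and 0.283. Of these, nlp-27 passed without HFD replicate 3 (0.0428) and with FA and OP fitted alone (0.0398), and nlp-31 passed without HFD replicate 2 (0.0399). Expression of cnc-4 was 10.8, 10.8 and 13.5 FPKM in FA (log2 fold change -0.27, 95% interval -0.76 to 0.21, limma adjusted p = 0.473).

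The HFD libraries differed in the same order for most of these genes, and the control libraries did not. HFD replicate 2 was the highest HFD library for all 8 genes and HFD replicate 3 the lowest for 7. In FA, replicate 1 was the highest for 5 of the 6 nlp genes and for neither cnc gene, and among the controls each library was the highest for 2 of the 6. The summed FPKM of the 6 nlp genes was 102, 98.5 and 93.7 in OP, 140, 232 and 96.7 in HFD, and 252, 166 and 160 in FA. The control libraries were close together, and HFD replicate 3 lay among them.

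Markers of the epidermis and of other tissues were detected in every library. For these lists and those below, the share over all genes tested was 2.74% called higher and 4.62% lower in HFD against OP. In FA against OP it was 4.61% and 9.96%. The summed level of 18 epidermal marker genes was 5444 to 5792 FPKM in OP, 5233 to 5530 in HFD and 3242 to 5471 in FA. Of the 16 tested, 0 rose and 1 fell in HFD against OP and 2 fell in FA against OP (medians 0.12 and -0.12). In HFD 2 fell without FA replicate 3 or HFD replicate 1, in FA 4 fell and 1 rose without FA replicate 1, and without OP replicate 1 there was 1 that rose in each comparison. The fallen gene in both was the adult cuticle collagen col-19, at 900 ± 150 FPKM in OP, 99.4 ± 62.5 in HFD and 75.1 ± 55.4 in FA (limma adjusted p = 0.00361 in HFD against OP); the other in FA was mlt-10. Germline markers were lower, with 5 of 14 called in HFD against OP and 10 in FA against OP (medians -0.62 and -1.01). Their summed levels were 869 to 1213 FPKM in OP, 661 to 694 in HFD and 500 to 744 in FA. Without 1 library, 1 to 7 germline markers fell in HFD against OP (1 with OP replicate 2 left out, 2 with OP replicate 3 left out, and 3 if HFD replicate 2 or 3 was) and 7 to 10 in FA against OP. Of the 11 intestine markers tested 1 rose in both comparisons with OP, cpr-1, though not in HFD without OP replicate 2. In each comparison 6 of the 11 changes were positive (medians 0.08 and 0.13). Their summed level was 5490 to 6386 FPKM in OP, 7276 to 11172 in HFD and 6448 to 12898 in FA. Of the 11 neuron markers 0 were called higher in HFD against OP and 1 in FA against OP, rab-3. All 11 changes were positive in both comparisons (medians 0.34 and 0.42). The count called in FA was 4 without FA replicate 1 and 2 without OP replicate 1. It was 0 when OP replicate 2 or 3 or FA replicate 2 or 3 was left out. None of the 10 muscle markers passed in any comparison, though 8 changes were positive in HFD against OP and 9 in FA against OP (medians 0.26 and 0.25). The part of these tissue differences in the changes of nlp-29 and cnc-2 was not tested.

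Of 18 genes of the p38 MAP kinase pathway and its epidermal inputs, among them dcar-1, tpa-1, nipi-3, tir-1, nsy-1, sek-1, pmk-1, snf-12 and sta-2, 0 passed in HFD against OP, with a median log2 fold change of 0.14. The lowest p were those of atf-7, sta-1 and plc-3. The bZIP factor gene atf-7, whose product acts downstream of PMK-1, went from 67.6 ± 8.50 FPKM in OP to 54.1 ± 5.02 FPKM in HFD, which did not pass (log2 fold change -0.31, limma adjusted p = 0.21). The phospholipase gene plc-3 went from 4.33 ± 0.214 to 6.36 ± 0.767 FPKM (0.46, limma adjusted p = 0.28). In FA against OP 1 of the 18 passed, beside 4.61% of all genes tested that were called higher. It was sta-1, a STAT gene other than the sta-2 named above (4.92 ± 0.535 and 7.25 ± 0.322 FPKM, limma adjusted p = 0.0429). It did not pass with any 1 library left out. Phosphorylation, through which this cascade works, is not measured by RNA sequencing. Of 6 enzymes of tyrosine breakdown, the pathway that makes the DCAR-1 ligand HPLA, 0 passed in either comparison with OP; gst-42 (-0.52) and hgo-1 (-0.34) had the lowest p in HFD against OP.

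Among 12 listed TGF-beta genes, 1 rose in HFD against OP and 2 in FA against OP. The shares called higher over all genes tested were 2.74% and 4.61%. The call in HFD and 1 of the 2 in FA was unc-129, a ligand gene known from axon guidance. It is not the gene of DBL-1, the ligand that controls cnc-2. Expression of unc-129 went from 5.53 ± 1.06 FPKM in OP to 9.21 ± 1.41 in HFD and 9.36 ± 1.04 in FA (limma adjusted p of 0.0439 and 0.0231). The Smad gene sma-3, needed for the response of cnc-2, was 6.33 ± 1.30 FPKM in OP, 8.88 ± 0.254 in HFD and 10.8 ± 2.40 in FA, and passed in FA against OP alone (limma adjusted p = 0.0308, and 0.185 in HFD against OP). The receptor gene daf-4 was 7.73 ± 1.14 FPKM in OP and 10.3 ± 0.575 in HFD (limma adjusted p = 0.18). The counts fell to 0 in HFD against OP without OP replicate 2 or 3 or any 1 HFD library, and to 0 in FA against OP without OP replicate 2 or 3 or FA replicate 2 or 3.

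Of 8 genes of the osmotic stress response 2 rose in HFD against OP and 3 in FA against OP, with 0 lower. The shares called higher over all genes tested were 2.74% and 4.61%. The list medians were 0.14 and 0.12, and the other 5 genes did not pass. High salt is known to raise nlp-29 in worms; whether these genes had a part in the change of nlp-29 was not tested. The glycerol-3-phosphate dehydrogenase gene gpdh-1, whose product makes the protective solute glycerol, was 9.30, 12.5 and 10.1 FPKM in OP, 35.6, 22 and 23 in HFD and 27.3, 24.1 and 24.2 in FA. Its HFD and FA libraries were all above its control libraries (log2 fold change 1.24, SE 0.19, limma adjusted p = 0.00455 in HFD against OP). The related gpdh-2 rose from 78.0 ± 3.44 to 289 ± 80.0 FPKM in HFD (1.83, SE 0.27, limma adjusted p = 0.00423), and both gpdh genes passed without any 1 library, with an adjusted p of at most 0.0272. The myo-inositol transporter gene hmit-1.1 was 11.3 ± 0.966 FPKM in OP, 21.3 ± 8.32 in HFD and 25.6 ± 5.02 in FA, and passed in FA against OP (limma adjusted p = 0.0111, lost without OP replicate 2 at 0.0528). HFD replicate 2, the library with most nlp-29, held 22 FPKM of gpdh-1, close to the 23 FPKM of HFD replicate 3. For gpdh-2 it held 329 FPKM, between HFD replicates 1 and 3. A link between these library orders was not tested. The genes osm-8, osm-11, ptr-23, wnk-1 and gck-3, described as brakes or kinases of this response, did not pass in any comparison.

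Of 6 genes of furrow collagens, cuticle proteins whose loss is known to raise nlp-29, all 6 had positive changes in HFD against OP and 2 rose, dpy-3 from 117 ± 24.1 to 222 ± 22.3 FPKM (log2 fold change 0.94, limma adjusted p = 0.0285) and dpy-2 from 78.5 ± 24.9 to 137 ± 13.7 FPKM (0.84, limma adjusted p = 0.0406), with a median of 0.81. Shares over all genes tested were 2.74% higher and 4.62% lower in HFD against OP, and 4.61% and 9.96% in FA against OP. The count of furrow collagens that rose in HFD was 5 without OP replicate 1, 4 without FA replicate 2 and 1 without HFD replicate 1. It was 0 when OP replicate 2 or 3 or HFD replicate 2 or 3 was left out. In FA against OP 1 rose, dpy-2; the count was 4 without OP replicate 1, 2 without FA replicate 1, and 0 when OP replicate 2 or 3, FA replicate 2 or 3 or HFD replicate 2 was left out. Among 11 transcription factor genes of the epidermis, elt-3, the GATA factor needed for nlp-29 expression in the epidermis, did not pass. In HFD against OP 1 rose, the GATA factor gene elt-6 (2.83 ± 0.470 to 5.20 ± 0.402 FPKM, limma adjusted p = 0.0258), and 1 fell, the homeobox gene ceh-60 (10.3 ± 0.590 to 5.85 ± 0.958 FPKM, limma adjusted p = 0.0264); each call was lost without any 1 of at least 5 of the libraries. In FA against OP elt-6 and the nuclear receptor gene nhr-25 rose and ceh-60 fell; nhr-25 was 3.08 ± 0.821 FPKM in OP and 5.79 ± 1.29 in FA (limma adjusted p = 0.0299). Without OP replicate 2 or 3 or FA replicate 2 or 3, none of these 3 passed in FA against OP.

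**Figure D4:**
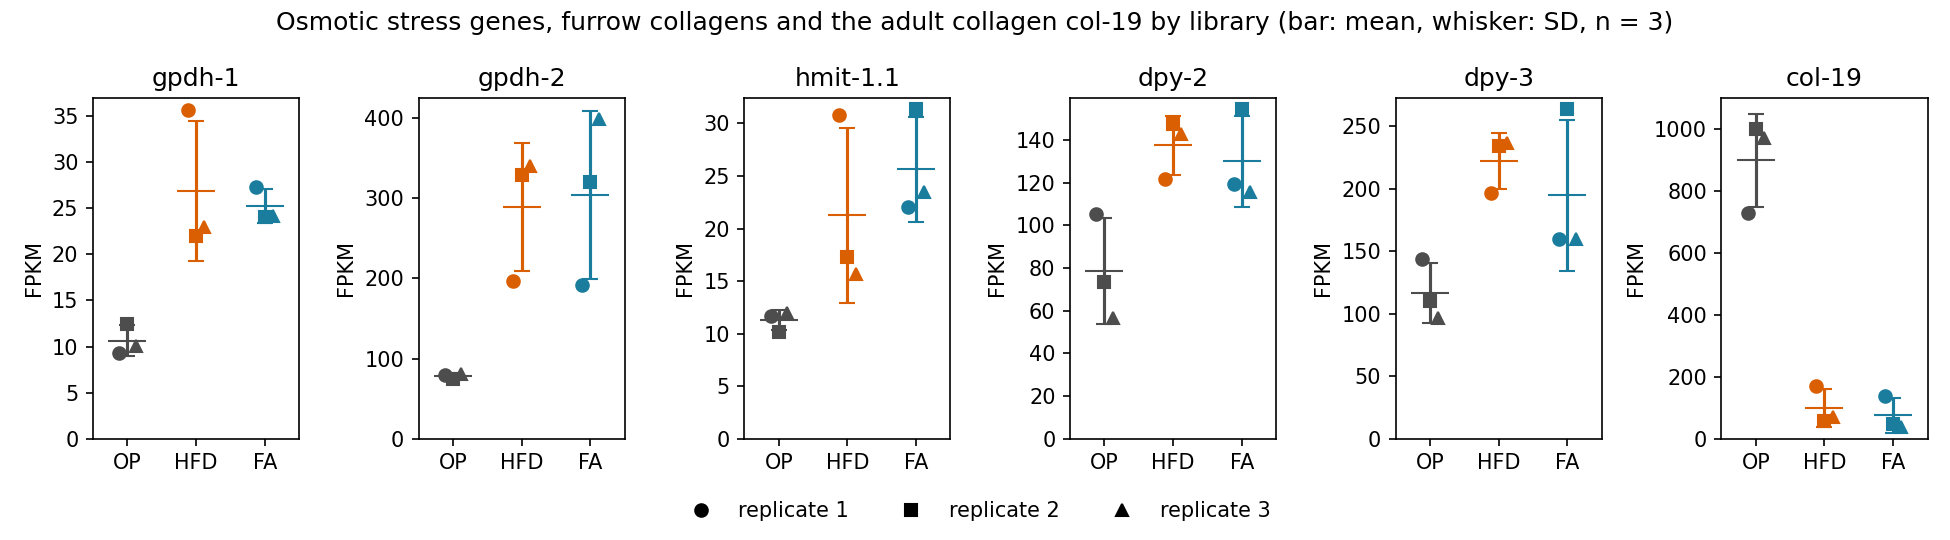
FPKM (linear axis from 0) by library for the osmotic stress genes gpdh-1, gpdh-2 and hmit-1.1, the furrow collagens dpy-2 and dpy-3 and the adult collagen col-19, with the mean and SD of 3 libraries. The HFD and FA libraries of gpdh-1 lie between 22 and 35.6 FPKM, above the controls at 9.30 to 12.5, and those of col-19 lie far below the controls.

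Other antimicrobial peptide families moved in part in the same direction. The caenacin gene cnc-3, inside the cnc group on the chromosome, was at 33.3 ± 2.56 FPKM in OP, 41.2 ± 7.72 in HFD and 38.5 ± 9.55 in FA and did not pass (limma adjusted p of 0.446 in HFD against OP). Of 7 caenacin genes outside the set 3 were tested and 0 passed; the closest was cnc-8, at 25 ± 6.82, 42.8 ± 13.5 and 48.3 ± 12.1 FPKM in OP, HFD and FA (limma adjusted p = 0.0512 in FA against OP), and 1 of the 3 passed in FA against OP when FA replicate 3, HFD replicate 3 or OP replicate 1 was left out. Of nlp-24, nlp-25, nlp-26, nlp-32 and nlp-33, 4 were tested and 0 passed. The most abundant of these were nlp-24, with 357 ± 61.2, 474 ± 152 and 552 ± 150 FPKM, and nlp-33, with 220 ± 8.83, 281 ± 55.7 and 340 ± 150 FPKM.

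Among 36 fungus-induced fip and fipr genes 19 were tested, and 2 rose and 1 fell in HFD against OP, with 5 and 1 in FA against OP. Shares over all genes tested were 2.74% higher and 4.62% lower in HFD against OP, and 4.61% and 9.96% in FA against OP. Expression of fipr-1 was 33.3, 36.1 and 37.1 FPKM in OP, 58.5, 86.8 and 52.8 in HFD and 57.9, 81.3 and 81.7 in FA, so that HFD and FA lay above the controls (log2 fold change 0.84, limma adjusted p = 0.0293 in HFD against OP). Expression of fipr-2 rose from 61.8 ± 6.93 to 102 ± 16.5 FPKM in HFD (0.70, limma adjusted p = 0.0313). The opposite held for fipr-13, which fell from 6.80 ± 1.77 to 1.1 ± 0.264 FPKM in HFD (-1.88, limma adjusted p = 0.00117) and passed without any 1 library. Its levels rested on few reads: 44, 46 and 73 in OP, 5, 9 and 10 in HFD, and 3, 7 and 8 in FA. Leaving out HFD replicate 3 gave 4 that rose in HFD, leaving out HFD replicate 1 gave 1, and leaving out HFD replicate 2 or any 1 control library gave 0. In FA against OP the number was 10 with HFD replicate 3 left out, 3 with HFD replicate 1 left out, and 2 without OP replicate 1, OP replicate 2, FA replicate 1 or FA replicate 2. Of the defensin-like abf genes 3 of 6 were tested and abf-6 rose, from 12.7 ± 1.78 to 19.8 ± 2.25 FPKM in HFD (0.60, limma adjusted p = 0.0443); this call was lost without OP replicate 2 or 3, any 1 HFD library or FA replicate 2. In FA it was at 20.0 ± 3.12 FPKM and rose against OP, a call lost when OP replicate 2 or 3 or FA replicate 2 or 3 was left out.

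The genes whose pattern over the 9 libraries was most like the mean of the 8 measured genes were looked for among 9897 protein-coding genes with a mean of at least 5 FPKM. Likeness was Pearson's r of log2(FPKM + 1), given as a description with no test, since libraries of a group lie together. The 8 closest were B0205.8 (r = 0.947), F46G11.4 (0.945), F46C8.3 (0.938), F13D11.3 (0.928), F09E10.7 (0.928), F10E9.4 (0.927), snet-1 (0.915) and W02D3.12 (0.913). In HFD against OP none of these 8 passed, and in FA against OP F46G11.4 (log2 fold change 0.73, limma adjusted p = 0.0363) and F09E10.7 (0.63, limma adjusted p = 0.05) did, the latter just under the threshold. These 8 were picked in the same libraries for following genes that were mostly higher in FA than in OP. A positive change was therefore partly built in, and these p-values are no separate support. Among the genes of the set, r with their own mean was highest for nlp-29, 0.961, and nlp-27, 0.925, lower for cnc-2, 0.75, and -0.03 for cnc-4. Each gene is part of that mean, and one that varies more weighs more in it, so this order is partly built in.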

How the data were processed

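One table with FPKM for 46986 genes in 9 libraries was deposited by the authors, with each gene's name, position and length, per the file headers. The submitters' processing notes name WBcel235 as the build; aligner, counting program and strandedness: not given in the sources used here. Control columns are headed OP50, and their numbers match samples titled OP; 0 other columns held sample values. Multiplied by gene length, 100% of the nonzero FPKM were whole multiples of what 1 read is worth in that library (tolerance 0.01 of a read), which gave read numbers. All 10 genes lie at the same position in Ensembl release 115. Left out were 52 unnamed loci, with 0.0184% to 0.0293% of reads.

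FPKM values are not read counts, so limma 3.58.1 in R 4.3.3 was run on log2(FPKM + 1) with an intensity trend in the variance, over the 14730 genes with at least 1 FPKM in at least 3 of the 9 libraries. A model of 3 group means used all libraries; tests were two-sided, with Benjamini-Hochberg adjustment over all genes and a threshold of 0.05. The script was tested on simulated data. The genes and lists were chosen with earlier results of these data known. Named were all 10 genes, up to 3 genes of each list with the lowest p in HFD against OP, and the 8 genes most like the set; listed genes named only because they passed in FA against OP, and col-19 in single libraries, were chosen after their values were seen. Alternatives were pseudocounts of 0.1 and 5, other filters, quantile and TPM scaling, robust moderation, the replicate number as a block, the 2 groups alone, voom on the recovered reads, a threshold of 0.01, and leaving out each library. No member sequence was used here.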

Additional observations from a re-analysis of the deposited data

How the results depend on the processing

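The direction of nlp-29 and cnc-2 in HFD against OP and in FA against OP was positive under every alternative that gave a value. For cnc-2 this is no separate support, since it entered the test only through HFD and FA libraries, where it was high. In HFD against OP 1 gene was called higher, and 0 with no filter on low values or at an adjusted p under 0.01; without 1 library the count was 0 to 1. In FA against OP 2 were called higher, and 1 with a pseudocount of 5, with no filter, with a mean FPKM of at least 1, with TPM scaling or at an adjusted p under 0.01; without 1 library it was 1 to 4, the most without HFD replicate 2 or 3. With FA and OP fitted alone it was 3 (nlp-27, nlp-28 and nlp-29), and with quantile normalization the 2 were nlp-29 and nlp-28. No gene of the set was called lower in any comparison under these alternatives, or called at all in FA against HFD. With the 2 compared groups alone, cnc-2 did not reach the filter and has no value against OP in either HFD or FA. In FA against HFD 4 uncalled differences changed sign with 1 library left out: over these fits nlp-29 ran from -0.0164 to 0.7735, nlp-30 from -0.0907 to 0.3851, nlp-31 from -0.0119 to 0.5891 and nlp-34 from -0.0421 to 0.4353. The negative values came without FA replicate 1 (nlp-30, nlp-31 and nlp-34) or without HFD replicate 3 (nlp-29, and nlp-30 at -0.0781); the cause was not tested.

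The labels do not say that a replicate number marks a shared batch. Deviations of same-numbered libraries correlated between -0.227 and 0.299. Libraries of different numbers were not set beside them, so whether a number marks a shared batch cannot be told. With the replicate block nlp-29 passed in HFD against OP (adjusted p = 0.0312) and nlp-29 and cnc-2 in FA against OP, so the count of genes of the set called was 1, 0 and 2 as without it; over all genes the block moved the calls in HFD against OP from 1083 to 837. Calls over all genes in HFD against OP were 472 with no filter, 1659 with the compared groups alone, 1237 with voom on the recovered reads and 221 (without OP replicate 2) to 1486 (without FA replicate 1) with 1 library left out; in FA against OP they were 2146, and 1424 with no filter, 2314 with voom and 883 (without OP replicate 2) to 2550 (without FA replicate 1). No scaling moved the median of all genes by over 0.1 on the log2 scale. Depth limits cnc-2 most, with 1 to 4 reads in each control library.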

Other observations

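The order of the libraries within a group seen for the set was set beside that of related lists. HFD replicate 2 was the highest HFD library for 4 of 4 tested genes among nlp-24, nlp-25, nlp-26, nlp-32 and nlp-33, and for 15 of 19 tested fip and fipr genes, and HFD replicate 3 was the lowest for 3 of the 4 and 15 of the 19. For 16 epidermal markers HFD replicate 2 was the highest for 3 and the lowest for 6. In FA, replicate 1 was the highest for 4 of the 4 nlp genes and 9 of the 19 fip and fipr genes, and replicate 2 was the highest for another 9 of these.

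The genes beside the nlp cluster were nearly silent. On one side str-83, a receptor gene, is listed at 0 in all 9 libraries, and on the other K09D9.9 was at 0.310 ± 0.442 FPKM in OP, 0.0992 ± 0.0603 in HFD and 0.226 ± 0.271 in FA. Beside the cnc group, cnc-11 had at most 2 reads in a library.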
